A study of Mus musculus with 12 samples.

Results

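Which RNAs of wild-type mouse embryonic stem (ES) cells are favoured by poly(A) selection was asked by setting the wild-type mRNA library against the wild-type long RNA library. Members were the rows that passed the authors' test status in both tables and carried the same gene name in both. These were 15112 of the 36883 rows of each table, and the 13765 of them that reached 1 FPKM (fragments scaled by transcript length and by library size) in at least 1 of both libraries were compared.

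The study asked about a requirement for Drosha, the nuclear ribonuclease that cuts microRNA hairpins out of their primary transcripts, in keeping CG methylation. It holds 12 samples, of which 9 are RNA and 3 are methylation samples. Each group used here is 1 library: wild-type mRNA, wild-type long RNA, Drosha-deficient mRNA and Drosha-deficient long RNA. All were ES cells kept in serum-containing medium supplemented with LIF (leukemia inhibitory factor), with RNA extracted in Trizol and separated afterwards, the long fraction on a microRNA isolation kit and the mRNA fraction with an oligo-dT kit. The labels of the RNA samples name no strain, parent line or clone, and do not say whether both fractions came from the same extraction. They also state that a library kit for small RNA was used. No label names a long RNA sample, so the long RNA table was assigned to the samples called total RNA by elimination.

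Most mRNAs of animal cells end in a poly(A) tail, which oligo-dT binds. The mRNAs of replication-dependent histones, made when DNA is copied, end instead in a stem-loop bound by SLBP and carry no tail. Transcripts of RNA polymerase III and spliceosomal RNAs have other 3′ ends, small nucleolar RNAs (snoRNAs) are mostly trimmed out of introns, and microRNA hairpins are cut out of longer transcripts.

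Both tables were normalized apart, so the log2 ratio of mRNA over long RNA, with 1 FPKM added to each value, was centred on the median row. That row stood 0.54 log2 units (1.45-fold) higher in mRNA. Rows whose centred log2 ratio reached 1 or -1, a 2-fold difference, are called higher or lower in mRNA. With a single library per fraction there was no replicate check, no error between replicates and no p-value, and the ratio compares these libraries. It is a ratio of shares of a library: more of one RNA and less of the others cannot be told apart, nor can fewer cells of a type and less RNA per cell. From the most common low value times length among rows of predicted genes, taken as 1 fragment, the depth was estimated at 21200000 fragments in wild-type mRNA and 18200000 in wild-type long RNA, so that 1 fragment on 1 kb stood for 0.0471 FPKM in mRNA against 0.0548 FPKM in long RNA. Intervals of fragment numbers given below are exact Poisson intervals at 95% and cover counting error only.

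The ES cell label was met by its markers. All 10 listed ES cell genes were above 0 in both libraries, with sums of 2350 FPKM in mRNA against 992 FPKM in long RNA. Of these, 9 were compared. Sox2, with 257 FPKM in mRNA against 5.80 FPKM in long RNA, carried another name in the long RNA table and was left out. Pou5f1, the core pluripotency factor, had 562 FPKM in mRNA against 262 FPKM in long RNA. Fibroblast or feeder markers summed to 275 FPKM in mRNA against 158 FPKM in long RNA over 10 rows. Most of this was Vim, a gene of intermediate filaments, at 154 FPKM in mRNA, followed by the collagen gene Col1a1 at 59.9 FPKM, Acta2 at 28.4 FPKM and Col1a2 at 19.6 FPKM. Of the 8 feeder rows compared, 2 were higher in mRNA, Col1a1 at 1.77 and Thy1 at 1.06, and none was lower, while Lum was at 0 in mRNA and was not compared. Trophoblast markers summed to 35.1 and 19.5 FPKM, blood markers to 9.22 and 4.06 FPKM, neuron markers to 7.11 and 3.84 FPKM and primitive endoderm markers to 1.68 and 1.77 FPKM, in mRNA and in long RNA in each case. Their part in the results below was not tested.

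Sequences of histone and microRNA genes, 2 groups with low ratios, are shown first, all from RefSeq on GRCm38.p6, 5′ to 3′. Promoters of 2 linker histone genes that were far lower in mRNA and of H3f3b, a replacement histone gene whose mRNA was near the median row, are given as windows of 300 bases, from 250 bases before the start to 50 bases after it. Capitals mark the motifs searched on both strands, which were the TATA box core TATAAA, the binding motif CCAAT of the factor NF-Y, and AAACACA, known as the H1 box of linker histone promoters.
Hist1h1a promoter (chr13:23763418-23763717, plus strand): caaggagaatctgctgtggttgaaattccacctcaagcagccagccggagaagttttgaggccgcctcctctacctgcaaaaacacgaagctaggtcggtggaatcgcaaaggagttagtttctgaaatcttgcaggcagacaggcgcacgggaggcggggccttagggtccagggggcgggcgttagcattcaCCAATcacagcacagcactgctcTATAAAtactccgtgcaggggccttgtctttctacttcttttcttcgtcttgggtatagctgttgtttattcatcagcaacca
Hist1h1b promoter (chr13:21780576-21780875, minus strand): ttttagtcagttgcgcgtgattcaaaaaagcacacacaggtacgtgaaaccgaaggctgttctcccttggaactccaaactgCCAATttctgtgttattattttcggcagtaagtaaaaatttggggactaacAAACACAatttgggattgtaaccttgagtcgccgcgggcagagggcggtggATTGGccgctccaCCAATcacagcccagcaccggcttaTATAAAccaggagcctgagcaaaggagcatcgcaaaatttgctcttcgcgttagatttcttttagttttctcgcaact
H3f3b promoter (chr11:116024455-116024754, minus strand): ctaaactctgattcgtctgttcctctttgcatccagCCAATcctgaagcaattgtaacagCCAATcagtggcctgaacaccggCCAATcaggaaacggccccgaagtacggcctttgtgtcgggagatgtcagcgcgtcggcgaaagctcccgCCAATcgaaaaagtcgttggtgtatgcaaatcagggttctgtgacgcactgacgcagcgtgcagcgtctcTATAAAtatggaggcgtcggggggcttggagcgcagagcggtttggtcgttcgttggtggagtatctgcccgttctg

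TATAAA stood in 34 of 57 windows of replication-dependent histone genes (59.6%), against 13.6% of all 32851 promoter windows. CCAAT stood in 48 of the 57 (84.2%), against 37.4% of all windows. AAACACA stood in 5 of 6 windows of linker histone genes (83.3%), against 7.18% of all windows, and the printed Hist1h1a window is the one without it. Among replacement histone variants, TATAAA stood in 1 of 10 windows, the printed H3f3b window, and CCAAT in 7 of 10 (70.0%). Of the 64 histone genes compared, 56 had a window. A match describes letters in these windows, and no measurement of binding was used.

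For the microRNA genes, the 3p arms of the miR-290 and miR-302 clusters, both known from mouse ES cells, are shown with the seed, bases 2 to 8, in capitals. They are followed by 3 microRNAs whose genes were at 6 FPKM or below in mRNA and higher in long RNA.
miR-291a-3p (chr7:3218968-3218989, plus strand): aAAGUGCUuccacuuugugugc
miR-294-3p (chr7:3220691-3220712, plus strand): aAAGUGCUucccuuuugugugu
miR-295-3p (chr7:3220815-3220837, plus strand): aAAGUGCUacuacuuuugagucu
miR-302b-3p (chr3:127545275-127545297, plus strand): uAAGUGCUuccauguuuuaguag
miR-302d-3p (chr3:127545665-127545687, plus strand): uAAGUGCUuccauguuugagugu
miR-290a-3p (chr7:3218674-3218697, plus strand): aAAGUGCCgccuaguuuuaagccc
miR-291b-3p (chr7:3219529-3219550, plus strand): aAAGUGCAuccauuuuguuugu
miR-363-3p (chrX:52741697-52741718, minus strand): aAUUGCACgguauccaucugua
miR-92a-3p from Mir92-2 (chrX:52741854-52741874, minus strand): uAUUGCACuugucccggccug
miR-127-3p (chr12:109592888-109592909, plus strand): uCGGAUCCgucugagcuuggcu

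The first 5 share the seed AAGUGCU, miR-290a-3p and miR-291b-3p each have a seed that no other measured gene had, and miR-363-3p and miR-92a-3p share AUUGCAC. A hairpin as RefSeq gives it is longer than its arms, and the rows of the tables cover the hairpin. The hairpins of a member of the miR-290 cluster and of Mir127, which had the lowest ratio of the microRNA genes, are given with the annotated mature arms in capitals.
Mir290a hairpin (chr7:3218626-3218708, plus strand): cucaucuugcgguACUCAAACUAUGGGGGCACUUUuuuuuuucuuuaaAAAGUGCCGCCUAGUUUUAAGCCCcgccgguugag
Mir127 hairpin (chr12:109592846-109592915, plus strand): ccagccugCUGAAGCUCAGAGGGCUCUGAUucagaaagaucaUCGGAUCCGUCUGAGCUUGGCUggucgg

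Across the 13765 rows, 874 (6.35%) were higher and 1012 (7.35%) were lower in mRNA, and the middle 50% of rows lay between -0.40 and 0.40. The downward side reached much further. At 4 log2 units or more, 190 rows were lower and 3 were higher. Of the 190, 50 were protein-coding rows by RefSeq, and 49 of these 50 were replication-dependent histones, the other being Rpl17. A further 45 were spliceosomal and other snRNA rows, 19 were microRNA genes, 16 were snoRNAs and 16 were pseudogenes. In mRNA 79 rows were listed at 0, and in long RNA 3 rows were.

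**Figure D1:**
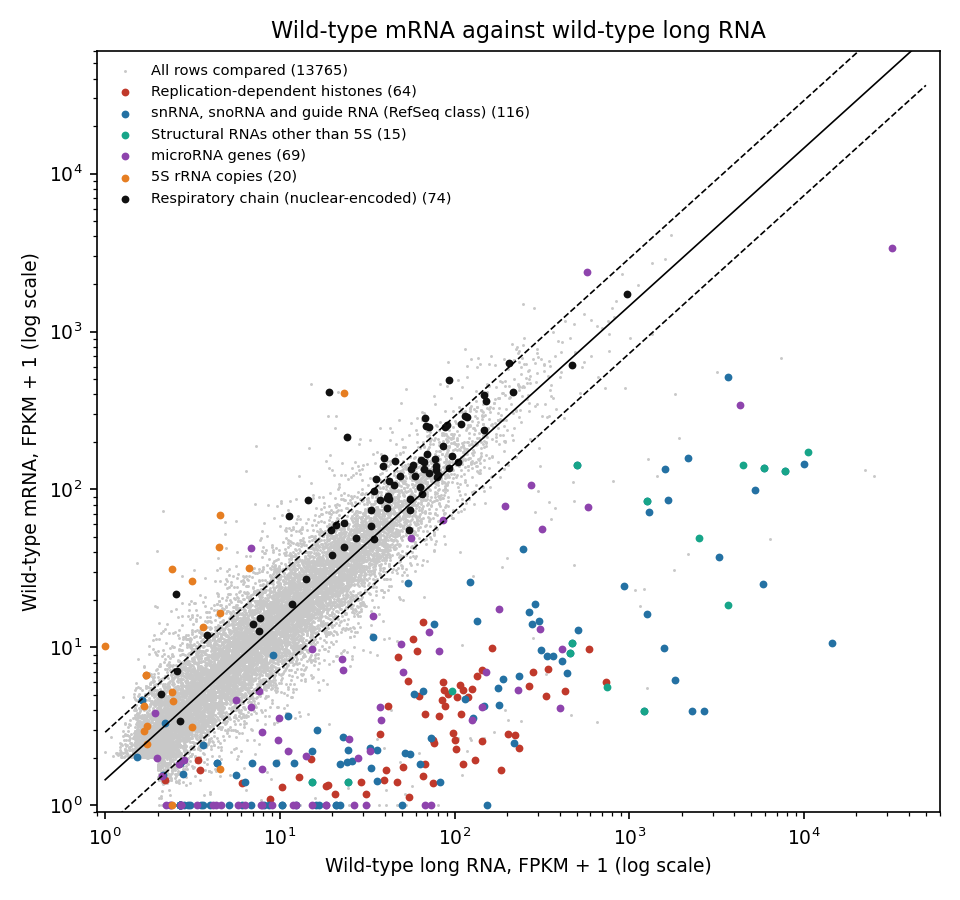
Each point is 1 of 13765 rows, with its FPKM + 1 in wild-type mRNA on the y axis and in wild-type long RNA on the x axis, both on log scales; the solid line is the median row and the dashed lines are 2-fold above and below it. Histones, snRNAs, most snoRNAs and most microRNA genes lie below the band, whereas most 5S rRNA copies and all respiratory chain genes lie within or above it.

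The rows with the highest level differed between both libraries. In mRNA the highest row was Gnb2l1, the gene of the ribosomal scaffold protein RACK1, at 4069 FPKM, against 1731 FPKM in long RNA. The 10 highest in mRNA also held Mir5099, Eef1a1, Rpl8, Mir6236, Hsp90ab1, Atp5b, Rpl4 and Rpl41, mostly genes of ribosomes and translation. The 10 highest in long RNA were Mir5099, Gm24299, Gm22405, Gm23143, Rny1, Snord104, Rn7sk, Gas5, Gm22179 and Rnu3a. Among these 10, Gas5 is a host transcript of snoRNAs and the others are short RNA genes or unnamed rows. Mir5099 was on both lists, with 3371 FPKM in mRNA against 32010 FPKM in long RNA.

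All 64 replication-dependent histone genes compared were lower in mRNA, with a median centred log2 ratio of -4.98 and a range of -7.48 to -1.13. These genes encode the core and linker proteins that package newly copied DNA. Of the 64, 24 passed the minimum level through long RNA alone, and the 40 at 1 FPKM or more in both libraries were also all lower, with a median of -4.98. Hist1h1a (chr13:23763717-23764358), a linker histone gene, had 5.00 FPKM in mRNA against 738 FPKM in long RNA, a centred log2 ratio of -7.48. These values stood for about 65 fragments (50 to 83) in mRNA and 8423 fragments (8245 to 8605) in long RNA. Hist1h2bb (chr13:23746790-23747241), an H2B gene, had 0.664 FPKM in mRNA, about 6 fragments (2 to 13), and 183 FPKM in long RNA, about 1426 fragments (1353 to 1502). Hist1h4c, an H4 gene, had 1.29 FPKM in mRNA against 233 FPKM in long RNA, a ratio of -7.21. All 3 genes were high in long RNA and at 5 FPKM or below in mRNA.

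The 5 histone families did not differ in direction. The median was -6.23 over 6 H1 genes, -5.88 over 13 H4 genes, -5.14 over 15 H2B genes, -4.76 over 11 H3 genes and -4.47 over 18 H2A genes. By cluster, 54 of the genes lay on chromosome 13 with a median of -5.21, 7 on chromosome 3 with -4.36, 2 on chromosome 11 with -3.41 and 1 on chromosome 6 at -4.69. The members nearest to the median row were Hist1h2aj at -1.13, Hist1h2ap at -1.35 and Hist2h3c2 at -1.60. Each of these 3 was below 3 FPKM in both libraries, where the added 1 FPKM holds the ratio before centring close to 0. Centring then shifts all rows down by the 0.54 log2 units given above, so rows of low level are drawn below 0. Histone genes are near copies of each other, so the split of reads among members is uncertain, while the direction was the same in all.

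Replacement histone variants, which are made outside DNA replication from polyadenylated mRNAs, stood on the other side. Of 11 measured, 3 were higher and 0 were lower, and the median was 0.49. H2afv (chr11:6427229-6444443), the gene of H2A.Z.2, had 431 FPKM in mRNA against 52.1 FPKM in long RNA, a ratio of 2.49. H1fx, a linker histone variant, was at 1.71, with 36.2 FPKM in mRNA against 6.85 FPKM in long RNA. H3f3a, which encodes histone H3.3, was at 1.25, with 65.5 FPKM in mRNA against 18.3 FPKM in long RNA. H3f3b, which encodes the same protein, had 180 FPKM in mRNA against 117 FPKM in long RNA, a ratio of 0.09. The lowest variant was H2afy2, a macroH2A gene, at -0.14. No variant overlapped in its ratio with any replication-dependent histone gene. Only 7.35% of all rows were lower in mRNA, so most other rows did not overlap with these histone genes either.

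The genes that make histone mRNA ends were themselves spread around the median row. Of 10 measured, 3 were lower and none was higher, with a median of -0.44. The lower ones were Casp8ap2 at -1.66, Npat, the coactivator of histone gene transcription, at -1.07 and Cpsf2 at -1.01. Slbp, the stem-loop binding protein, had 108 FPKM in mRNA against 51.5 FPKM in long RNA, a ratio of 0.52.

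Structural RNAs other than 5S rRNA were lower in mRNA in all 15 rows measured, with a median of -5.99. Of the 15, 2 passed the minimum level through long RNA alone, and the other 13 had a median of -6.17. Rnu5g (chr9:65201726-65201841), a U5 snRNA gene of the spliceosome, had 2.95 FPKM in mRNA, about 4 fragments (1 to 10), and 1210 FPKM in long RNA, about 1634 fragments (1556 to 1715). Rmrp, the RNA of the RNase MRP enzyme that processes rRNA, had 17.4 FPKM in mRNA against 3696 FPKM in long RNA, a ratio of -8.18. Rny1, a Y RNA, had 171 FPKM in mRNA against 10521 FPKM in long RNA, a ratio of -6.47. Rn7sk, the RNA that holds a transcription elongation factor inactive, had 130 FPKM in mRNA against 7811 FPKM in long RNA, a ratio of -6.44. In mRNA these 4 ranked between 423 and 10959 of the 13765 rows, and in long RNA between 5 and 41. Terc, the RNA of telomerase, was at -4.73, and Rnu12, an RNA of the minor spliceosome, was the least low at -2.35, with 142 FPKM in mRNA against 503 FPKM in long RNA.

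By RefSeq class, all 80 snRNA rows compared were lower, with a median of -4.20. Of the 80, 41 passed the minimum level through long RNA alone, 21 of them listed at 0 in mRNA, and the 39 at 1 FPKM or more in both libraries were all lower, with a median of -5.54. The lowest row of all was among them: Gm23143 (chr4:117202528-117202643), with 9.60 FPKM in mRNA against 14426 FPKM in long RNA, a ratio of -10.95. That is about 13 fragments (7 to 22) in mRNA against 19485 fragments (19212 to 19760) in long RNA. Genes of snRNA have many near-identical copies, so the level of a single copy is uncertain.

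The small nucleolar and Cajal body RNAs, which guide chemical modification of rRNA and snRNA, were lower in all 7 named rows, with a median of -5.78. Snord104 had 143 FPKM in mRNA against 10055 FPKM in long RNA, a ratio of -6.66. Snord118, the U8 RNA needed to mature the large ribosomal subunit, had 98.3 FPKM in mRNA against 5250 FPKM in long RNA, a ratio of -6.26. Scarna17 was the least low at -3.09, with 40.9 FPKM in mRNA against 245.6 FPKM in long RNA. Over the RefSeq class of snoRNA, which includes rows with no family name, 26 of 30 were lower and none was higher. Of these 30, 11 passed the minimum level through long RNA alone and 2 through mRNA alone, and of the 17 at 1 FPKM or more in both libraries 15 were lower.

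5S rRNA, the RNA polymerase III product of the large ribosomal subunit, stood apart from these. Of 20 annotated copies measured, 11 were higher in mRNA and 2 were lower, with a median of 1.34. The copy n-R5s193 (chr4:149817732-149817840) had 405 FPKM in mRNA against 22.2 FPKM in long RNA, a ratio of 3.59. These are about 490 fragments (448 to 536) in mRNA and 27 fragments (18 to 39) in long RNA. Of the 20 copies, 7 passed the minimum level through mRNA alone and 2 through long RNA alone, and of the 11 at 1 FPKM or more in both, 8 were higher. Both lower copies were near the depth limit: n-R5s92 had 0.705 FPKM in mRNA, about 1 fragment, against 3.55 FPKM in long RNA, about 5 fragments, and n-R5s64 was listed at 0 in mRNA and had 1.42 FPKM in long RNA, about 2 fragments. The sequences of the copies were not compared, and the sources used here do not say how fragments were split among copies that share sequence. Some of the rows are listed over spans far longer than a 5S copy, such as n-R5s88 at 432567 bases. A listed span can be wider than the copy measured. The row n-R5s25, listed over 27112 bases, had the same 5.64 FPKM in mRNA as n-R5s13, listed over 119 bases.

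**Figure D2:**
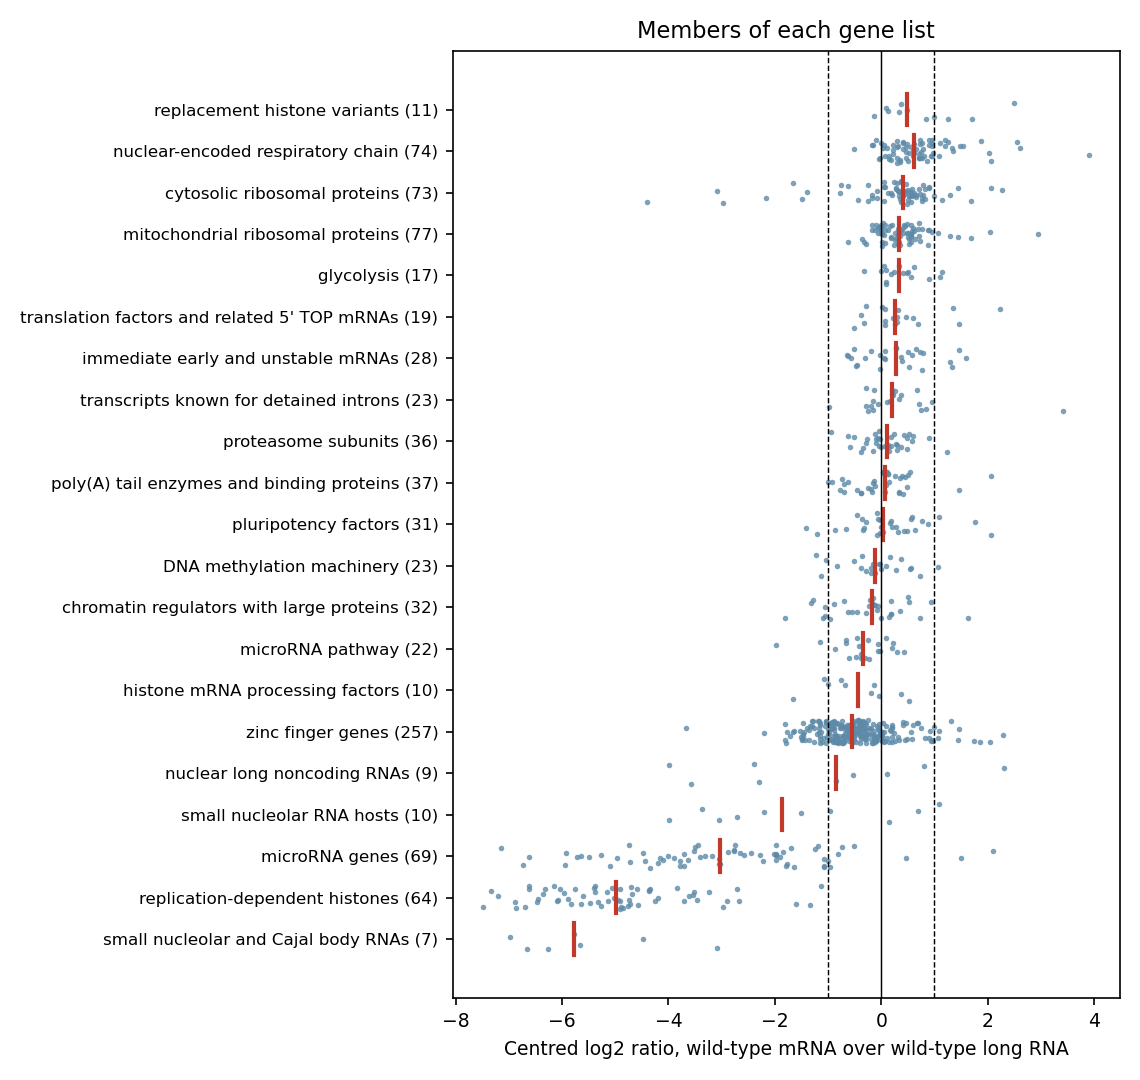
Each point is a measured member of a gene list, placed by its centred log2 ratio of wild-type mRNA over wild-type long RNA on the x axis; red bars are list medians, numbers in parentheses are measured members and dashed lines mark 2-fold. Histones, snoRNAs and microRNA genes form the low end, with medians of -4.98, -5.78 and -3.03, and the respiratory chain has a median of 0.61.

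MicroRNA genes were lower in mRNA in 61 of 69 measured and higher in 2, with a median of -3.03. The microRNA rows are listed over the hairpin or a wider stretch around it. A fragment on the hairpin can come from the primary transcript, the cut hairpin or the mature RNA. Of the 69, 28 passed the minimum level through long RNA alone and 24 were listed at 0 in mRNA. Among the 39 at 1 FPKM or more in both libraries, 34 were lower and 2 were higher, with a median of -3.06. Mir127 had 3.13 FPKM in mRNA against 402 FPKM in long RNA, a ratio of -7.14. It is listed over 11137 bases on chromosome 12 that hold 6 other annotated microRNA genes. Mir434, listed over the same span, was at 0 in mRNA and had 72.5 FPKM in long RNA, so neither value is that of the whole span. Mir363 was listed at 0 in mRNA and had 66.9 FPKM in long RNA, about 40 fragments (28 to 54).

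All 7 genes of the miR-290 cluster were lower in mRNA, with a median of -3.45. They ran from Mir290a at -5.95, with 4.38 FPKM in mRNA against 229 FPKM in long RNA, to Mir291b at -1.65, with 14.7 FPKM in mRNA against 32.9 FPKM in long RNA. The gene with the highest level of the cluster was Mir292, with 342 FPKM in mRNA against 4320 FPKM in long RNA, a ratio of -4.19. Among the genes whose 3p arm shares the AAGUGCU seed, Mir291a was at -5.10, Mir294 at -3.03, Mir302d at -2.01, Mir302b at -1.97 and Mir295 at -1.90. The seed thus went with a range of ratios, and miR-302 members were low in both libraries: Mir302d had 2.56 FPKM in mRNA against 8.92 FPKM in long RNA. The exceptions to the direction were Mir6240 at 2.095, with 41.4 FPKM in mRNA against 5.85 FPKM in long RNA, and Mir6236 at 1.503, with 2368 FPKM in mRNA against 575 FPKM in long RNA.

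Transcripts that carry microRNAs in a longer RNA did not share this level of difference. Mir17hg, the host of the miR-17 to 92 cluster, had 9.09 FPKM in mRNA against 25.6 FPKM in long RNA, a ratio of -1.94. H19 was at 0.21, with 45.1 FPKM in mRNA against 26.4 FPKM in long RNA, and Mirg was at 0.81, with 25.6 FPKM in mRNA against 9.45 FPKM in long RNA. Among protein-coding rows that hold an annotated microRNA and no snoRNA, 63 of 602 were higher and 28 were lower, with a median of 0.09, beside 618 higher and 508 lower of the 10122 rows that hold neither.

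Host transcripts of snoRNAs were lower in mRNA in 6 of 10 and higher in 1, with a median of -1.86. Gas5 (chr1:161008794-161038539) had 675 FPKM in mRNA against 7419 FPKM in long RNA, a ratio of -3.99, and 8 annotated snoRNAs lie inside its row. Snhg1, also with 8 snoRNAs inside, had 112 FPKM in mRNA against 803 FPKM in long RNA, a ratio of -3.37. Snhg12, with 4 inside, had 84.0 FPKM in mRNA against 483 FPKM in long RNA, a ratio of -3.04. At the other end Snhg11 was at 1.08 and Snhg5 at 0.69, each with 2 snoRNAs inside. Whether the level of such a row counts fragments of the snoRNAs in its introns beside those of the spliced host was not tested. The sources used here do not say whether fragments were matched to the strand.

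Many cytosolic ribosomal protein genes also hold snoRNAs in their introns, and 73 of these genes were measured. As a list they had a median of 0.40, with 6 higher (8.22%) and 7 lower (9.59%), shares near the 6.35% and 7.35% of all rows. All 7 lower genes were among the 28 that hold an annotated snoRNA, a grouping chosen after the values were seen, where 1 was higher and the median was 0.12. Among the 45 without one, 5 were higher and 0 were lower, and the median was 0.53. Rpl17 had 32.1 FPKM in mRNA against 481 FPKM in long RNA, a ratio of -4.40, with 3 snoRNAs inside. Rpl23a at -3.08 and Rps12 at -2.98 also hold 3 each, Rps13 at -2.17 holds 1, and Rpl7a at -1.67 holds 4. Holding a snoRNA did not always go with a low ratio: Rpl4, with 5 inside, had 1554 FPKM in mRNA against 837 FPKM in long RNA, a ratio of 0.36, and Rps16, with 1 inside, was at 1.13.

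The highest ribosomal protein genes were Rpl26, with 642 FPKM in mRNA against 91.0 FPKM in long RNA, a ratio of 2.27, and Rpl41, with 1496 FPKM in mRNA against 245 FPKM in long RNA, a ratio of 2.07. Over all protein-coding rows, 37 of 341 with a snoRNA inside were lower (10.9%) and 12 were higher (3.52%), with a median of -0.09. In the rows with neither a snoRNA nor a microRNA inside, 5.02% were lower and 6.11% were higher.

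**Figure D3:**
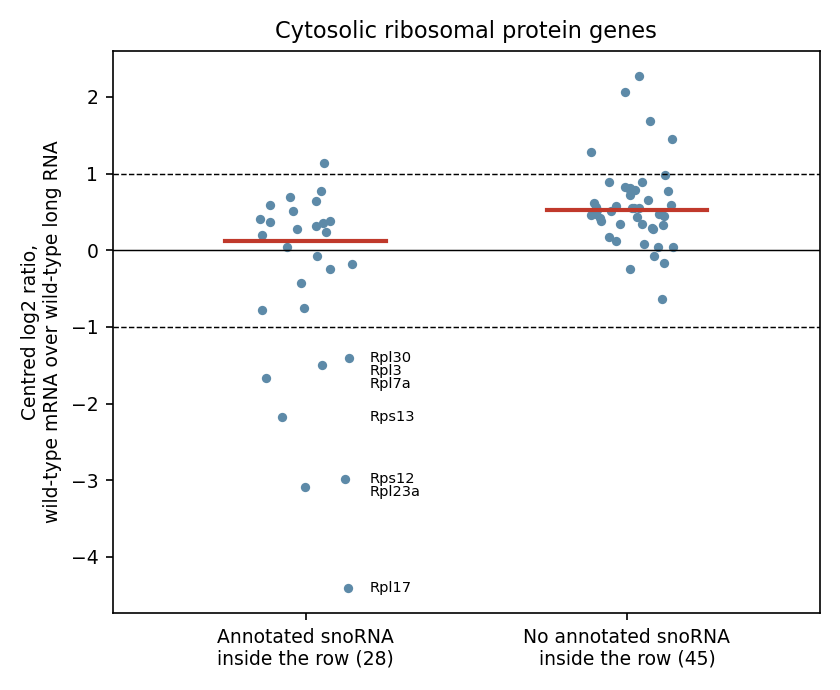
Centred log2 ratio of wild-type mRNA over wild-type long RNA (y axis) for 73 cytosolic ribosomal protein genes, split by whether an annotated snoRNA lies inside the row; red bars are medians and dashed lines mark 2-fold. The 7 named genes below the lower dashed line are all in the group of 28 with a snoRNA inside.

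Nuclear long noncoding RNAs gave values on both sides, with 4 of 9 measured lower, 1 higher and a median of -0.85. Kcnq1ot1 and Nespas, 2 of the lower ones, passed the minimum level through long RNA alone, and among the other 7 rows 2 were lower and 1 was higher, with a median of -0.52. Malat1 (chr19:5795690-5802672), an abundant RNA of nuclear speckles whose 3′ end is a triple helix without a long poly(A) tail, had 155 FPKM in mRNA against 1272 FPKM in long RNA, a ratio of -3.57. Kcnq1ot1, the antisense RNA of an imprinted domain, had 0.181 FPKM in mRNA against 2.997 FPKM in long RNA, a ratio of -2.29. Meg3 (chr12:109541001-109571726), the maternally expressed RNA of the Dlk1-Dio3 domain, had 353 FPKM in mRNA against 48.3 FPKM in long RNA, a ratio of 2.31. Tug1 was at -0.52 and Firre at -0.85, and neither was called. Gas5 and Mirg stand on this list as well and were described above.

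Of 8 rows named for the mitochondrial genome 5 could be compared, and 3 were lower and 1 was higher. The lower ones are named for tRNAs. The row mt-Tp, listed over 67 bases, had 64.1 FPKM in mRNA against 357 FPKM in long RNA, a ratio of -2.997. The row mt-Tq is listed over 5016 bases and had 121 FPKM in mRNA against 1444 FPKM in long RNA. The rows of mt-Ts1 and mt-Nd6 are listed over the same 8812 bases with different values, so a listed span can be wider than the RNA measured. The row mt-Ts1 was listed at 0 in mRNA with 6.03 FPKM in long RNA. The row mt-Cytb, a subunit of complex III, was higher at 1.58, with 699 FPKM in mRNA against 161 FPKM in long RNA. The row mt-Nd6, a subunit of complex I, had 326 FPKM in mRNA against 121 FPKM in long RNA, a ratio of 0.89.

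Of the gene lists of cell functions, the nuclear-encoded respiratory chain had the highest median. Of 74 genes measured, 15 were higher (20.3%, beside 6.35% of all rows) and 0 were lower, and the median was 0.61. Uqcrq (chr11:53427922-53430831), a small subunit of complex III, had 415 FPKM in mRNA against 18.0 FPKM in long RNA, a ratio of 3.91. Atp5d, the delta subunit of ATP synthase, had 214 FPKM in mRNA against 23.2 FPKM in long RNA, a ratio of 2.61, and Atp5g1 was at 2.56 with 20.9 FPKM in mRNA against 1.56 FPKM in long RNA. Cox6b2 and Cox6a1 of complex IV were at 2.06 and 1.87, and Ndufc1 of complex I was at 2.03. Ndufs1, a large subunit of complex I, was the lowest at -0.51, with 54.6 FPKM in mRNA against 53.7 FPKM in long RNA.

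Mitochondrial ribosomal proteins had a median of 0.34, with 6 of 77 higher (7.79%, near the 6.35% of all rows) and none lower. Mrps25 was at 2.94, with 61.9 FPKM in mRNA against 4.64 FPKM in long RNA, and Mrps14 was at 2.05. Translation factors and related mRNAs with a 5′ terminal oligopyrimidine had a median of 0.26, with 3 of 19 higher (15.8%). Among these were Tpt1 at 2.23 and Pabpc1, the cytoplasmic poly(A)-binding protein, at 1.46. Glycolysis genes had a median of 0.34 with 2 of 17 higher (11.8%), Ldhb at 1.13 and Gapdh at 1.10. Proteasome subunits lay near the median row, with 1 of 36 higher (2.78%), Psma3 at 1.23, and a median of 0.10. Immediate early and unstable mRNAs had a median of 0.27 with 4 of 28 higher (14.3%). These were Egr1 at 1.59, Zfp36 at 1.45, Nr4a1 at 1.33 and Myc at 1.29. None was lower in any of these 5 lists.

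Zinc finger genes, mostly of the large family of transcriptional repressors, lay on the low side. Of 257 measured, 48 were lower (18.7%) and 9 were higher (3.50%), beside 7.35% and 6.35% of all rows, with a median of -0.54. Of the 257, 17 passed the minimum level through long RNA alone and 10 through mRNA alone, and of the other 230, 36 were lower and 8 higher, with a median of -0.51. The lowest was Zfp949, with 3.27 FPKM in mRNA against 36.4 FPKM in long RNA, a ratio of -3.67, followed by Zfp871 at -2.20. The highest was Zfp664, with 30.1 FPKM in mRNA against 3.37 FPKM in long RNA, a ratio of 2.30. These genes are of low level, with medians of 3.96 FPKM in mRNA against 3.63 FPKM in long RNA, and many are related in sequence.

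Chromatin regulators with large proteins had 6 of 32 lower (18.75%) and 1 higher (3.125%), beside 7.35% and 6.35% of all rows, with a median of -0.16. The lower ones were Chd6 at -1.81, Nsd1 at -1.31, Nipbl, the cohesin loader, at -1.28, Chd9 at -1.09, Chd7 at -1.06 and Ash1l at -1.06. Among genes of the microRNA pathway, 2 of 22 were lower (9.09%, near the 7.35% of all rows) and none was higher, with a median of -0.34. Ago3, an Argonaute protein, was at -1.99, with 1.59 FPKM in mRNA against 6.08 FPKM in long RNA, and Tnrc6b, a scaffold of the silencing complex, was at -1.15. Drosha had 42.1 FPKM in mRNA against 21.2 FPKM in long RNA, a ratio of 0.43, Dgcr8 was at -0.48 and Dicer1 at -0.66.

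DNA methylation genes had 3 of 23 lower and 1 higher, with a median of -0.12. Hells, a chromatin remodeler needed for methylation, had 141 FPKM in mRNA against 200.2 FPKM in long RNA, a ratio of -1.04, and Mbd3, of the NuRD complex, was at 1.07. Dnmt1, the maintenance methyltransferase, was not called, at -0.36. Of 31 pluripotency genes, 3 were higher (9.68%) and 2 were lower (6.45%), near the shares of all rows, with a median of 0.03. The higher ones included Utf1 at 1.76 and Klf5 at 1.08, and Rex2 at -1.41 and Trim71 at -1.20 were the lower ones. Nanog had 192 FPKM in mRNA against 71.2 FPKM in long RNA, a ratio of 0.89, and Klf4 was at -0.08. The enzymes and binding proteins of the poly(A) tail were near the median row, with 2 of 37 higher (5.41%), 1 lower (2.70%) and a median of 0.07. Cnot3, a subunit of the deadenylase complex, was the highest of them at 2.06, while its partner Cnot1 was at -0.93. Of 23 transcripts known for introns detained in the nucleus, 1 was called higher (4.35%) and 0 lower, and their median was 0.19.

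Among the rows compared, those highest in mRNA over long RNA belonged to no single list. Adad1 (chr3:37063527-37125959), an adenosine deaminase domain gene known from the testis, had 72.3 FPKM in mRNA against 1.13 FPKM in long RNA, a ratio of 4.57. Lars2, the mitochondrial leucyl-tRNA synthetase, had 465 FPKM in mRNA against 14.1 FPKM in long RNA, a ratio of 4.42. Fyb at 4.14, Prkg2 at 3.95, Uqcrq of the respiratory chain at 3.91, Gm15564 at 3.83, Mbd5 at 3.82 and Vmp1 at 3.74 followed. In long RNA Adad1 had 1.13 FPKM, Mbd5 0.983 FPKM and Prkg2 0.529 FPKM. Hnrnpd, an RNA-binding protein, was at 3.26, with 292 FPKM in mRNA against 20.03 FPKM in long RNA. The rows of Lars2, Gm15564 and Mbd5 are listed over spans of 95725, 110621 and 508176 bases. Some rows listed over the same span had different values, so a value is not that of the whole span.

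The ratio also went with the listed span of the row. Over 11065 protein-coding rows in 4 bands of equal size, the median was 0.23 in the 25% with the shortest span (up to 12407 bases), 0.08 and -0.06 in the next bands and -0.24 in the 25% with the longest span (from 65892 bases). Rows higher in mRNA were 8.60% of the shortest band and 4.19% of the longest, and lower rows were 4.34% and 9.26%. The level of a gene moved with the ratio too, with a median of -0.12 in the 25% of rows with the lowest mean level and 0.15 in the 25% with the highest. The lowest band had mean levels of 0.57 to 3.97 FPKM, where the added 1 FPKM itself pulls the centred ratio to the low side. That part of the trend cannot be told apart from the calculation. Within each band of level, the rows of shortest span had a higher median than those of longest span. The medians were -0.01 against -0.27 in the lowest level band, then 0.23 against -0.25, 0.33 against -0.23 and, in the highest, 0.37 against -0.16. These are descriptions across genes, which are not replicates. Span is not transcript length, which was not used here. Nor is it always the length of the named gene, since a listed span can take in neighbouring genes. Rex2 and Zfp600, for example, are both listed over the same 1338746 bases.

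**Figure D4:**
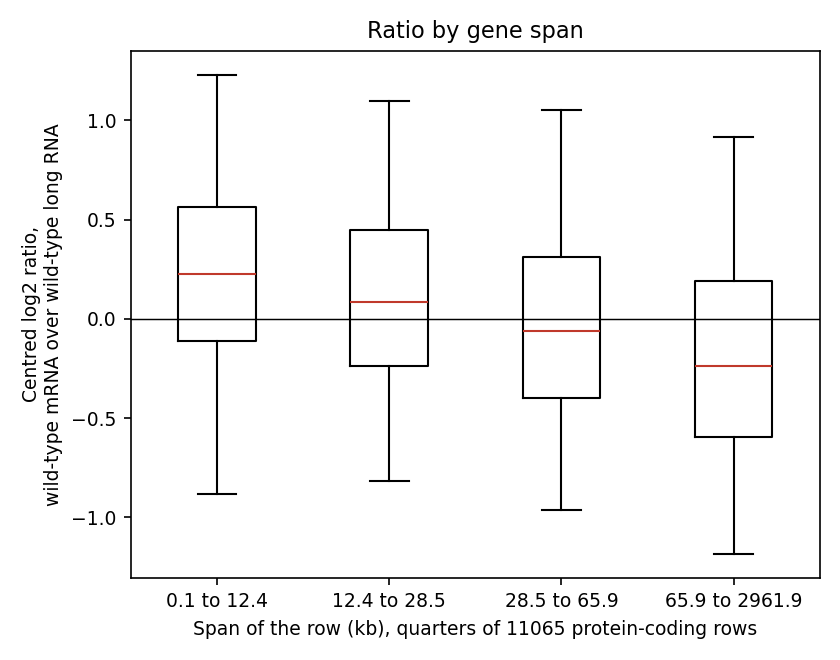
Centred log2 ratio of wild-type mRNA over wild-type long RNA (y axis) for 11065 protein-coding rows in 4 bands of genomic span (x axis, kb). Boxes give the middle 50% of rows and red lines the medians. Whiskers end at a low and a high percentile of the rows of each band, and rows beyond them are not drawn. Medians step down over the bands, 0.23, 0.08, -0.06 and -0.24, while the boxes overlap.

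The Drosha-deficient cells gave the same ratio from a second pair of libraries, which shares none with the wild-type pair and is of another genotype, so it is no replicate. The fibroblast or feeder markers summed to 103 FPKM in mRNA against 59.2 FPKM in long RNA of Drosha-deficient cells, below the sums of the wild-type pair given above, and their part in differences between the pairs was not tested. In this pair 7.87% of 13512 rows were higher and 6.32% were lower in mRNA. Of 12932 rows measured in both pairs, 619 of the rows higher in wild-type mRNA (71.0%) were also higher in Drosha-deficient mRNA and 2 were lower. Of the rows lower in wild-type mRNA, 611 (64.5%) were also lower and 9 were higher. Across rows Pearson's r was 0.85 and Spearman's rho was 0.82, given as a description across genes that share libraries within each pair.

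Histones were lower in all 64 rows in both pairs, with a median of -4.43 in the Drosha-deficient pair and -4.98 in the wild-type pair. Hist1h1a had 9.35 FPKM in mRNA against 420 FPKM in long RNA of Drosha-deficient cells. The snoRNA hosts were lower in 7 of 9 rows in the Drosha-deficient pair, with a median of -3.16. Gas5 was at -3.81 there, with 827 FPKM in mRNA against 7875 FPKM in long RNA. For Malat1 the ratio was -3.26 and for Uqcrq it was 4.06, beside -3.57 and 3.91 in the wild-type pair. The respiratory chain had 20 of 74 genes higher, none lower and a median of 0.62, and zinc finger genes had a median of -0.51.

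Other groups had different medians in both pairs, and that difference was not tested. Structural RNAs other than 5S were lower in all 15 rows in both, with a median of -3.55 in the Drosha-deficient pair and -5.99 in the wild-type pair. All 19 5S copies measured were higher in the Drosha-deficient pair, with a median of 4.07. Of these 19, 12 passed the minimum level through mRNA alone, and the 7 at 1 FPKM or more in both libraries were all higher, with a median of 4.19. In the Drosha-deficient pair 26 of 56 microRNA genes were lower and 6 were higher, with a median of -0.83, beside -3.03 in the wild-type pair. Among the 43 at 1 FPKM or more in both Drosha-deficient libraries, 18 were lower and 2 were higher, with a median of -0.71. Mir290a had 174 FPKM in mRNA against 162 FPKM in long RNA of Drosha-deficient cells, a ratio of -0.45, against -5.95 in wild-type cells. Mir127 had 71.0 FPKM in mRNA against 93.2 FPKM in long RNA of Drosha-deficient cells, a ratio of -0.94, against -7.14 in wild-type cells. For both genes the mRNA value was higher in Drosha-deficient than in wild-type cells and the long RNA value was lower.

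**Figure D5:**
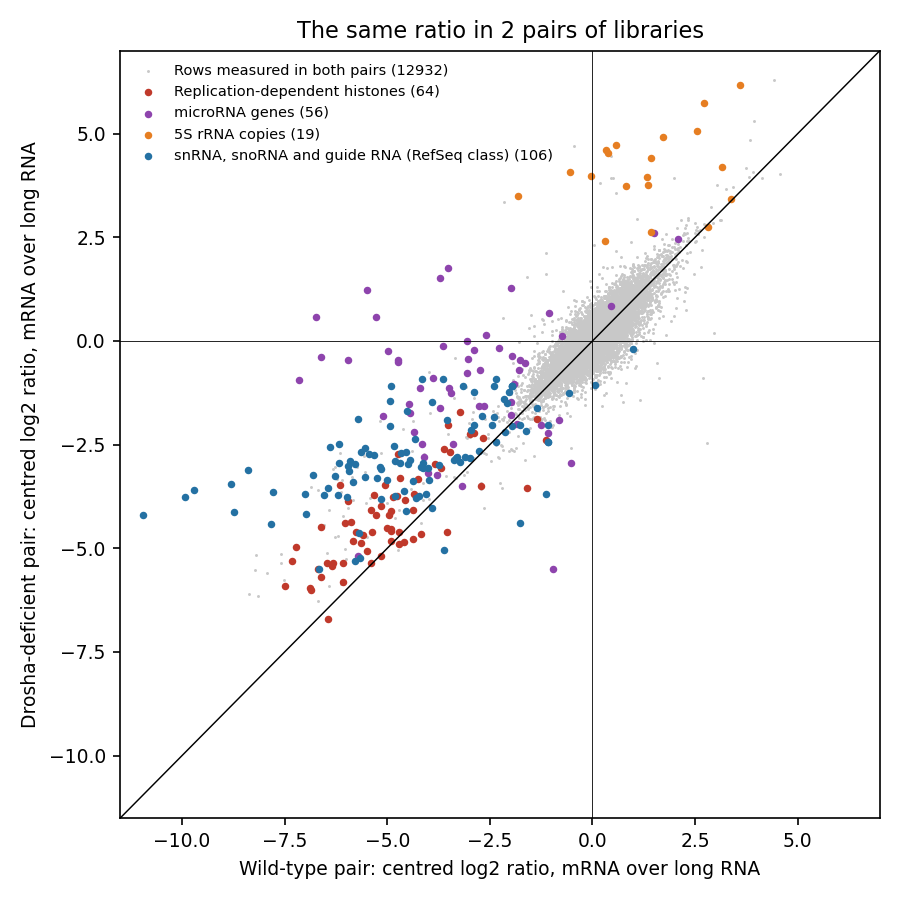
Centred log2 ratio of mRNA over long RNA in the Drosha-deficient pair (y axis) against the wild-type pair (x axis) for 12932 rows measured in both; the diagonal marks equal ratios. Histones lie in the lower left, 19 5S rRNA copies lie above 2 in the Drosha-deficient pair, and many microRNA genes lie above the diagonal.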

How the data were processed

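Wild-type and Drosha-deficient ES cell libraries of mRNA and of long RNA were used, 1 per genotype and fraction, grouped by their titles. The authors deposited FPKM per gene in 1 table per fraction, where the first value is wild type and the second Drosha-deficient, per the file headers. The submitters' processing notes name TopHat2 2.0.10, bcl2fastq 1.8.4, Cuffdiff, Cufflinks 2.1.1 and the build mm10/GRCm38. The sources used here do not give the annotation, the scaling or the use of strand. The deposited p-values compare genotypes and were not used.

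Rows with status OK in both tables and the same name were joined on their identifier; 253 rows with another name were left out. Log2((mRNA + 1)/(long RNA + 1)) was centred on the median row, with a minimum of 1 FPKM in at least 1 library. Values that passed through 1 library alone numbered 1058 for mRNA and 358 for long RNA. RefSeq symbols matched 13066 rows (94.9%) and gave gene classes, genes inside a row and sequences. Genes inside a row were counted over its listed span, which can take in neighbouring genes. Depth was estimated from rows of 400 to 3000 bases named as predicted genes: the most common low product of FPKM and length was taken as 1 fragment. Fragment numbers of single rows came from a second fit to rows of up to 200 bases, in which the lowest value at a length was taken as 1 fragment. Of the values of those rows, 98.0% (mRNA) and 91.6% (long RNA) were whole multiples of it, within a tolerance of 0.02. These shares include the lowest values themselves, which are multiples by definition. That fit was extended to longer rows, and fragment numbers are given up to 800 bases.

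Named genes were the 15 highest and 15 lowest single-name rows at 5 FPKM or more, the 3 highest and 3 lowest members of each list, the 10 highest levels per library and a few fixed genes. Others (such as single members of the miR-290 cluster, Rpl7a, Snhg5, Chd7 and Chd9) were named after their values were seen. The members and lists were chosen with earlier results of these data known, and the subgroups (5S copies, histone families, snoRNA inside, microRNA clusters) after seeing values. Alternatives covered the pseudocount, the minimum, the centring, matched ranks, the status filter and a 4-fold call. The calculation was tested on simulated data. Python 3.11.15, pandas 2.3.3, numpy 2.4.6, scipy 1.17.1 and matplotlib 3.10.9 were used. Dnmt1-deficient and methylation samples were not analysed here. Some genes counted in the lists are not reported here by name.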

Additional observations from a re-analysis of the deposited data

Results flagged for a closer look

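In 11 rows the ratio of mRNA over long RNA was past 2-fold in opposite directions in the wild-type and the Drosha-deficient pair. The difference between the pairs was not tested, since each has 1 library per fraction. Ratios below are centred log2 values of the wild-type pair.

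Of these, 4 microRNA genes and 1 5S copy were listed at 0 in wild-type mRNA and at 0 in Drosha-deficient long RNA. Mir23a was at -5.49, with 30.1 FPKM in wild-type long RNA and 2.44 FPKM in Drosha-deficient mRNA. Mir302a was at -3.71, with 8.05 FPKM in wild-type long RNA and 3.20 FPKM in Drosha-deficient mRNA. Mir146 was at -3.52, with 6.94 and 3.95 FPKM in these libraries, and Mir539 at -1.98, with 1.72 and 2.54 FPKM. The 5S copy n-R5s64 was at -1.81, with 1.42 FPKM in wild-type long RNA and 15.5 FPKM in Drosha-deficient mRNA.

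Gm24601 was at -2.15, with 97.0 FPKM in mRNA against 299 FPKM in long RNA of wild-type cells and with 658 FPKM in mRNA against 42.7 FPKM in long RNA of Drosha-deficient cells. Gm10736 was at -1.60, with 1.69 and 4.61 FPKM in wild-type mRNA and long RNA and 101 and 22.7 FPKM in Drosha-deficient mRNA and long RNA. Gm24588 was at -1.13, with 1.46 and 2.71 FPKM in wild-type mRNA and long RNA. Gm25032 was at -1.13 as well, with 1.42 and 2.64 FPKM there. Gm11918 was at 1.1503, with 9.76 FPKM in wild-type mRNA and 2.34 FPKM in wild-type long RNA, and at -1.41 in the Drosha-deficient pair. A row named only after a genomic clone was at 2.78, with 8.97 FPKM in wild-type mRNA and a listing at 0 in wild-type long RNA, and at -2.47 in the Drosha-deficient pair.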

How the results depend on the processing

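No paired analysis was possible because each group has 1 library, and for the same reason no library could be left out. No row past 2-fold among those chosen for naming changed direction under an alternative, but 28 lost the 2-fold call under at least 1 and 18 gained one. With a pseudocount of 5, 24 lost it, among them Npat at -0.72, Cpsf2 at -0.73, Nipbl at -0.92, Hells at -0.82, Tnrc6b at -0.66, Klf5 at 0.90, Trim71 at -0.92 and the histone genes Hist2h3c2 at -0.73, Hist1h2ap at -0.65 and Hist1h2aj at -0.51. The medians of poly(A) tail and pluripotency genes, at 0.07 and 0.03, crossed 0 under some. The median of all structural RNAs, a mix of 5S and other rows, was -0.54 and became 0.34 with all rows except failed or too deep ones. It was -4.31 with a minimum of 5 FPKM and -3.40 with 1 FPKM in both libraries, a setting added after seeing the data. With a pseudocount of 0.1 the histone median was -6.00 and that of microRNA genes -4.37; with a pseudocount of 5 they were -3.83 and -1.60, the mitochondrial genome median was -1.47 and the count of lower rows was 422, beside 621 higher. The microRNA median was -3.68 with a minimum of 5 FPKM. The snoRNA median was -4.41 with matched ranks, and the mitochondrial genome median was -1.06 with 1 FPKM in both libraries. A 4-fold call left 92 higher and 322 lower rows. Centring on rows at 10 FPKM or more in both gave 778 higher and 1128 lower rows. Of 225 list medians under the alternatives, 214 moved by less than 1.5-fold. Rows near 1 FPKM rest on few fragments, and 79 rows listed at 0 in mRNA allow no fold.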

Other observations

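The microRNA genes compared here were also read in the wild-type short RNA table, which was normalized apart, so no ratio was formed. Of the 69 genes, 63 were at 1 FPKM or more there, with a median of 3534 FPKM in short RNA, beside 1.64 FPKM in mRNA against 17.3 FPKM in long RNA. Mir292 had 556982 FPKM in short RNA, beside 342 FPKM in mRNA against 4320 FPKM in long RNA. The pair of microRNA rows that were higher in mRNA than in long RNA were low in short RNA: Mir6236 had 33.5 FPKM and Mir6240 was listed at 0.

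Pseudogenes of ribosomal proteins, copies of spliced mRNAs in the genome, had 15 of 162 rows higher in mRNA (9.26%) and 3 lower (1.85%). Over all rows 6.35% were higher and 7.35% were lower. The median of these pseudogenes was 0.25, beside 0.40 for the ribosomal protein genes. Rps13-ps5 was at 1.79, with 12.9 FPKM in mRNA against 1.77 FPKM in long RNA, and its parent gene Rps13 was at -2.17. These copies share reads with their parent genes, so the split between both is uncertain.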
